A study of Triticum aestivum with 16 samples.

Results

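Axillary buds of M6, a hexa-mutant of the bread wheat cultivar Zhengmai7698 (ZM7698), were compared with axillary buds of the wild type (WT) of that cultivar. Libraries were assigned to groups by their labels, and the comparison rests on 4 of the 16 libraries of the series, 2 for each genotype. M6 carries the genotype written as TaSPL7-aabbdd_TaSPL15-aabbdd, that is, the A, B and D copies of both TaSPL7 and TaSPL15 are mutated, and WT is labelled as wild type. Both groups were seedlings of 2 weeks, grown at 22 °C for 16 h in light and at 19 °C for 8 h in darkness, and the buds were 1.0 to 2.0 cm long. The 4 ZM7698 shoot apex libraries, 2 of WT and 2 of M6 at the same age, entered the fit for the spread and for the test of whether the effect of M6 differed between bud and apex. The sources used here do not give whether M6 descends from 1 plant or whether the replicates are separate plants, so the p-values reflect the spread between libraries, which may be technical.

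SQUAMOSA PROMOTER BINDING PROTEIN-LIKE (SPL) proteins are plant transcription factors with an SBP-box DNA-binding domain, and many of their transcripts are targets of the microRNA miR156. In grasses they restrain the outgrowth of axillary buds into tillers and act in the shift from juvenile to flowering growth. A well-studied gene in this setting is TB1, a TCP transcription factor that represses bud outgrowth. Wheat carries A, B and D copies of most genes, so a mutant of both SPL genes needs all copies of both to be altered.

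Levels are TPM, a transcript's share of the library scaled to a fixed total and corrected for transcript length, so the sequencing depth is unknown and no counting interval can be given. The 8 ZM7698 libraries held 70100 to 73715 identifiers above 0 and 45382 to 48820 at 1 TPM or more, of 120744 listed. Fold changes are differences of log2(TPM + 1), which understate the change of genes below about 1 TPM. A gene was called when its limma p-value, adjusted by the Benjamini-Hochberg method over the 50878 genes tested, was under 0.05 and its log2 fold change was at least 1 in size. Neither the files nor the reference table pair identifiers with gene names, so regulator names here rest on published identifiers, and other genes are given by identifier. The sources used here do not say which identifiers are TaSPL7 and TaSPL15, and the genotype was not checked on the mutated genes. TPM in bulk tissue cannot tell apart fewer cells of a type and less RNA per cell.

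The bud label was checked on TB1. TB1-4B (TraesCS4B02G042700) stood at 15.1 and 17.2 TPM in the WT buds and at 27.3 and 20.4 TPM in the M6 buds. The same gene stood at 2.03 and 3.30 TPM in the WT apices and at 2.34 and 1.60 TPM in the M6 apices. The bud libraries of both genotypes thus lay above all apex libraries. VRN1 and FUL2, relatives among the MADS-box genes that promote flowering, were at or near 0 in all 8 libraries, with a highest value of 0.0288 TPM, for VRN1-5A in 1 M6 apex library.

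The M6 buds differed from the WT buds in a small set of genes and over a wide range of size. Of the genes tested, 41 were called higher in M6 (0.0806%) and 34 lower (0.0668%), together 75 (0.147%). The called log2 fold changes ran from -6.42 to 7.77. The libraries of both genotypes did not overlap for any of the 75. Across all genes tested, both M6 buds lay above both WT buds for 8408 (16.5%) and below both for 10002 (19.7%), so groups that did not overlap were common and did not by themselves set the called genes apart.

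The largest increase was that of TraesCS1D02G037300. It stood at 0.419 and 1.04 TPM in the WT buds and at 364 and 378 TPM in the M6 buds. Near silent in one genotype, it was strongly expressed in the other in both replicates. The log2 fold change was 7.77 ± 0.17 (SE, adjusted p = 3.08e-05 by limma). TraesCS3D02G504400 was listed at 0 in both WT buds and stood at 38.6 and 36.7 TPM in the M6 buds, for a log2 change of 5.27 ± 0.10 (SE, adjusted p = 1.81e-05 by limma).

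The largest decreases lay on chromosome 5B. TraesCS5B02G260600 stood at 91.9 and 78.4 TPM in the WT buds and was listed at 0 in both M6 buds, for a log2 change of -6.42 ± 0.12 (SE, adjusted p = 1.81e-05 by limma). TraesCS5B02G080800 stood at 27.3 and 28.0 TPM in the WT buds and at 0 and 0.00897 TPM in the M6 buds, for a log2 change of -4.84 ± 0.09 (SE, adjusted p = 1.81e-05 by limma). Transcripts of both were at or next to 0 in every M6 library, the apices included, where the highest value was 0.127 TPM. These 4 genes were called with each of the 8 libraries left out in turn.

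Genes near 0 in one genotype made up part of the called set. Of the 41 higher genes, 9 were listed at 0 in both WT buds and 3 more were under 0.1 TPM there. Of the 34 lower genes, 6 were listed at 0 in both M6 buds and 2 more were under 0.1 TPM. In the other 55, at least 1 bud library of the lower genotype reached 0.1 TPM, and some of these were still near 0 there. TraesCS7A02G102800, named after its values were seen, stood at 2.94 and 3.74 TPM in the WT buds and at 0.108 and 0 TPM in the M6 buds. Among the 55, TraesCS6B02G078400, chosen after its values were seen, was one of the most abundant in WT, at 277 and 264 TPM, and stood at 27.0 and 23.0 TPM in the M6 buds (log2 fold change -3.39 ± 0.18, SE; limma adjusted p = 0.00229). TraesCS6D02G040800, chosen in the same way, stood at 126 and 120 TPM in the WT buds and at 12.5 and 14.8 TPM in the M6 buds (log2 fold change -3.08 ± 0.11, SE; limma adjusted p = 0.000349). Both were thus still expressed in M6, well below the WT level in each replicate.

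**Figure D1:**
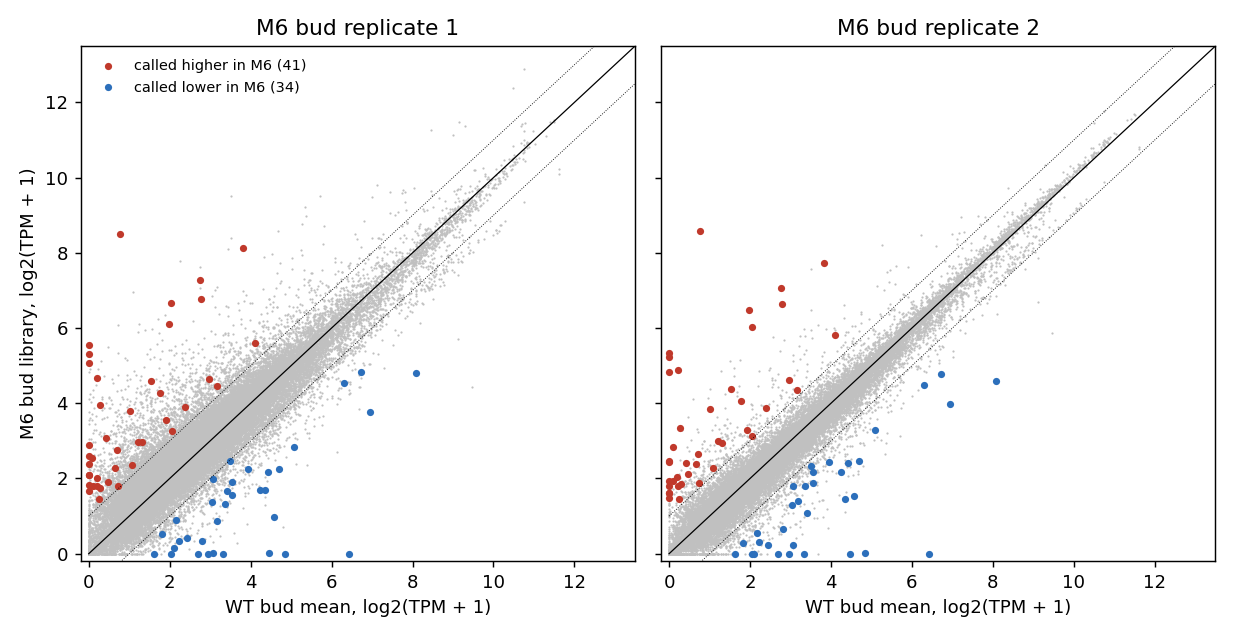
Each panel plots 1 M6 bud library against the mean of the 2 WT bud libraries, both as log2(TPM + 1), for the 50878 genes tested; the solid line marks equal values and the dotted lines a 2-fold difference. The 41 genes called higher (red) and the 34 called lower (blue) lie outside the dotted lines in both panels, while the grey genes spread further in replicate 1 than in replicate 2.

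The M6 bud replicates were then read apart. Without a test, 1 library was set against the mean of the WT log2 values, and a gene was counted when it differed by at least 2-fold. Replicate 1 lay that far above the WT mean for 2499 genes (4.91%) and that far below for 1089 (2.14%). Replicate 2 did so for 449 (0.883%) and 622 (1.22%). In both replicates at once, 301 genes were higher and 331 lower. Both replicates were set against the same WT libraries, so this overlap does not measure their agreement. By their separate counts, the replicates differed in how many genes departed from WT. They also differed in the balance of directions, since replicate 1 had more genes above WT and replicate 2 more below. This balance moved with the scaling: with each library centred on its median, replicate 1 had 1857 genes above and 1760 below, and replicate 2 had 526 and 522.

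The 75 called genes were also read by replicate. All 75 lay at least 2-fold from the WT mean in replicate 1 and all 75 in replicate 2, in the same direction, as the call, which needs a small gap between replicates, largely requires. Their median gap between the M6 replicates was 0.181 on the log2 scale, against 0.278 for all genes tested, and the largest was 0.715. Replicate 1 lay further from WT than replicate 2 for 41 of the 75. The widest gap among the called genes was that of TraesCS1D02G136600, named after its values were seen, which was listed at 0 in both WT buds and stood at 45.8 TPM in replicate 1 and 27.5 TPM in replicate 2.

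Tested against WT on its own, each M6 replicate gave a different number of calls. In the fit with replicate 1 alone, limma called 1398 genes higher and 614 lower, and 74 of the 75 genes were among them. In the fit with replicate 2 alone it called 18 higher and 19 lower, and 29 of the 75 were among them. In these fits the lone M6 bud library is assumed to vary like the other groups, whose replicates lie closer together. Other single libraries moved the counts too. Without WT bud replicate 1 there were 11 higher and 10 lower, and without WT bud replicate 2 there were 12 and 9. Leaving out either M6 apex library gave 18 and 15, and leaving out either WT apex library gave 28 and 20. In all, 18 of the 75 genes were called whichever library was left out.

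The spread within the M6 buds was the widest of the 4 ZM7698 groups. The difference between replicates 1 and 2 had an SD over genes of 0.534 on the log2 scale in the M6 buds, against 0.312 in the WT buds, 0.387 in the WT apices and 0.308 in the M6 apices. A difference of at least 2-fold was found for 5.76% of genes in the M6 buds, 1.51% in the WT buds, 3.70% in the WT apices and 1.71% in the M6 apices. The M6 bud libraries correlated across genes with Pearson's r = 0.947 on the log2 scale, the WT bud libraries with r = 0.982. M6 bud replicate 2 had r = 0.972 and 0.975 with the WT bud libraries, closer than with the other library of its own group, and M6 bud replicate 1 had r = 0.923 and 0.944. Genes are not independent replicates, and these values are given as a description.

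The difference between the M6 replicates was mostly in one direction. Replicate 1 lay at least 2-fold above replicate 2 for 2645 genes (5.2%) and replicate 2 above replicate 1 for 285 (0.56%). The median over all genes tested was 0.116 on the log2 scale, and after centring each library on its median the counts were 1672 and 765. Replicate 1 was the highest of all 8 libraries for 2246 of the 2645 genes (84.9%), against 33.7% of all genes tested, a difference that the choice of these genes favours. The WT buds also differed for these genes: WT replicate 2 lay above WT replicate 1 for 2211 of them (83.6%), against 65.8% of all genes tested. For the 285 genes higher in M6 replicate 2 that share was 68.4%, near that of all genes tested. The genes higher in M6 replicate 1 were thus not uniform within the WT buds either.

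**Figure D2:**
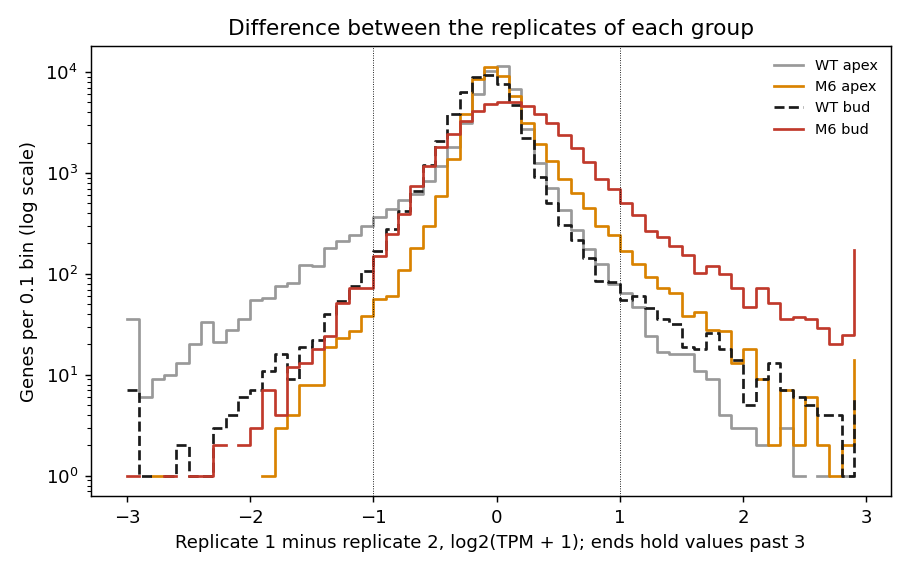
For each ZM7698 group, the lines count genes by the difference between replicate 1 and replicate 2 in log2(TPM + 1), in bins of 0.1, on a logarithmic count axis; values past 3 are put in the end bins and the dotted lines mark 2-fold. The M6 bud curve (red) is the widest on the right, where replicate 1 is higher, with 2645 genes past 2-fold.

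Examples show how far single genes departed. TraesCS6D02G283000 stood at 0.0659 and 20.7 TPM in the WT buds, at 220 TPM in M6 replicate 1 and at 0 in M6 replicate 2. TraesCS6B02G332700 stood at 0.0660 and 3.25 TPM in the WT buds, at 124 TPM in M6 replicate 1 and at 0 in M6 replicate 2. In both genes the M6 replicates lay on either side of both WT libraries, which also differed from each other, and neither gene was called (limma adjusted p = 0.842 and 0.733). In the other direction, TraesCS7A02G434500 stood at 0.159 TPM in M6 replicate 1 and 11.5 TPM in M6 replicate 2, with 0.483 and 0.299 TPM in the WT buds. TraesCSU02G124500, on no placed chromosome, stood at 3.30 and 25.5 TPM in the M6 buds and at 1.02 and 3.57 TPM in the WT buds.

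Lower values in 1 M6 replicate alone were less extreme. TraesCS2A02G062400 stood at 26.1 and 43.5 TPM in the WT buds, 4.25 TPM in M6 replicate 1 and 18.2 TPM in M6 replicate 2. TraesCS6D02G206200 stood at 137 and 179 TPM in the WT buds, 29.4 TPM in M6 replicate 1 and 79.2 TPM in M6 replicate 2. For these genes both M6 libraries lay below both WT libraries, yet neither was called (limma adjusted p = 0.480 and 0.280). TraesCS3B02G469600 stood at 13.03 and 10.4 TPM in the WT buds, 22.7 TPM in M6 replicate 1 and 0.937 TPM in M6 replicate 2, on opposite sides of WT. In the apices it stood at 6.85 and 6.96 TPM in WT and at 1.35 and 0.916 TPM in M6. Both M6 apices thus lay below WT, as M6 bud replicate 2 did, and M6 bud replicate 1 did not.

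A set of genes on the group 4 chromosomes showed the same order of the 4 bud libraries. TraesCS4B02G070300 stood at 16.6 and 93.0 TPM in the WT buds, 594 TPM in M6 replicate 1 and 5.25 TPM in M6 replicate 2. TraesCS4A02G245100 stood at 23.1 and 114 TPM in the WT buds, 724 TPM in M6 replicate 1 and 7.81 TPM in M6 replicate 2. TraesCS4D02G069100 stood at 10.4 and 55.6 TPM in the WT buds, 385 TPM in M6 replicate 1 and 3.59 TPM in M6 replicate 2. The genes on 4A and 4D were added after their values were seen. In each of these genes M6 replicate 1 was the highest bud library and M6 replicate 2 the lowest, with WT between them, so the mean over the M6 replicates describes neither. In the apices both M6 libraries lay below both WT libraries for each. The M6 apices against the WT apices stood at 3.47 and 1.54 against 18.1 and 12.1 TPM (4B) and 1.86 and 1.22 against 18.4 and 10.7 TPM (4A). For 4D they stood at 1.60 and 0.603 against 7.56 and 3.98 TPM. None was called in the apex (limma adjusted p from 0.920 to 0.948).

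Genes that differed between the WT bud and the WT apex were also read by replicate. A list of 821 genes was called higher in the WT bud than in the WT apex and a list of 450 was called lower. Both lists were chosen on the WT libraries used here, so the WT values are no evidence. The bud-high genes summed to 71517 and 78403 TPM in the WT buds, 34690 TPM in M6 replicate 1 and 45708 TPM in M6 replicate 2, against 35244 and 25751 TPM in the M6 apices. The choice of genes favours lower sums in M6 than in the WT buds, so nothing is read from that difference. M6 replicate 1 lay below 1 of the M6 apices in the sum, which abundant genes weigh most, while the median gene of the list lay above the mean of the M6 apices by 0.24 in replicate 1 and by 0.52 in replicate 2 (log2). M6 replicate 1 was above replicate 2 for 126 of the 821 (15.3%), against 61.7% of all genes tested. The apex-high genes summed to 1939 and 2321 TPM in the WT buds, 3200 and 2910 TPM in the M6 buds, and 9224 and 7499 TPM in the M6 apices. The part of tissue make-up in the difference between the M6 replicates was not tested.

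The listed genes that regulate tillering, flowering and spikes were then read for both replicates. Of 44 identifiers listed, 24 passed the filter, and 2 of them were called higher in M6 and 0 lower, against 0.147% called over all genes tested. Both M6 buds lay above both WT buds for 9 of the 24 and below for 1, against 16.5% and 19.7% of all genes tested. The 9 include every copy of TB1 and of RHT1, which lie near each other by identifier, so they are not 9 independent examples. Of the identifiers that did not pass the filter, 8 were listed at 0 in all 8 libraries. The median log2 fold change of the 24 was 0.28, against 0.03 for all genes tested. By replicate it was 0.59 in M6 replicate 1 and 0.12 in M6 replicate 2, against 0.09 and -0.05 for all genes tested. M6 replicate 1 exceeded replicate 2 for 19 of the 24 (79.2%), against 61.7% of all genes tested, so most of the distance from WT lay in 1 library.

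An SBP-box gene on chromosome 7D, TraesCS7D02G245200, was called higher. It stood at 1.60 and 2.21 TPM in the WT buds and at 23.0 and 19.7 TPM in the M6 buds. The M6 replicates lay close together and about 10 times above WT, at 12.1 and 10.3 times the WT mean. The log2 fold change was 2.95 ± 0.14 (SE, adjusted p = 0.00119 by limma), and the call held with each library left out. In the apex it was also called higher, at 16.5 and 16.2 TPM in M6 against 3.03 and 2.93 TPM in WT.

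The A and B copies of this gene did not follow. TraesCS7A02G246500 stood at 3.25 and 3.68 TPM in the WT buds and at 3.28 and 3.25 TPM in the M6 buds. TraesCS7B02G144900 stood at 1.03 and 1.504 TPM in the WT buds and at 0.912 and 1.39 TPM in the M6 buds. Their genotypes overlapped (limma adjusted p = 0.896 and 0.894). The preceding identifier on 7D, TraesCS7D02G245100, was named after its values were seen and was called higher with its neighbour, from 2.17 and 2.67 TPM in the WT buds to 18.3 and 15.6 TPM in the M6 buds (log2 fold change 2.39 ± 0.13, SE; limma adjusted p = 0.00255). The sources used here do not give whether any of the listed SBP-box genes is among those mutated in M6, and how reads were divided between near-identical copies is not known.

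A second group of SBP-box genes, on the group 5 chromosomes, was not called. TraesCS5A02G265900 stood at 4.29 and 4.30 TPM in the WT buds and at 3.04 and 3.49 TPM in the M6 buds, the 1 listed gene with both M6 buds below both WT buds (limma adjusted p = 0.417). TraesCS5B02G265600 stood at 2.59 and 2.93 TPM in the WT buds and at 3.35 and 3.38 TPM in the M6 buds (limma adjusted p = 0.574). TraesCS5D02G273900 stood at 2.76 and 3.83 TPM against 3.62 and 3.15 TPM, and overlapped.

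Among SVP-type MADS-box genes, known in cereals for delaying the transition to flowering and for spike development, SVP1-6D (TraesCS6D02G293200) was called. In the apex it was also called higher, at 9.83 and 9.51 TPM in M6 against 0.186 and 0.395 TPM in WT. In the buds it stood at 0.154 and 0.268 TPM in WT, 14.5 TPM in M6 replicate 1 and 9.07 TPM in M6 replicate 2. Each replicate tested alone also gave a call (limma adjusted p = 0.00388 for replicate 1 and 0.00868 for replicate 2). Leaving out WT bud replicate 1 (limma adjusted p = 0.0883) or WT bud replicate 2 ended the call and kept the direction. SVP1-6A stood at 10.4 and 13.3 TPM in the WT buds, 17.2 TPM in M6 replicate 1 and 12.03 TPM in replicate 2. SVP1-6B stood at 9.79 and 11.5 TPM in the WT buds, 18.1 TPM in M6 replicate 1 and 9.54 TPM in replicate 2. In both of these copies replicate 1 was the highest of the 4 buds and replicate 2 lay inside or below the WT range, and SVP1-6B alone among them passed an adjusted p under 0.05 with replicate 1 alone, at a log2 difference of 0.71, short of the minimum for a call.

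The VRT2 copies, of the same type, followed that order. VRT2-7A stood at 2.30 and 4.23 TPM in the WT buds and at 5.87 and 3.91 TPM in the M6 buds. VRT2-7B stood at 5.55 and 8.41 TPM against 12.1 and 7.84 TPM. VRT2-7D stood at 4.93 and 6.14 TPM against 7.71 and 5.54 TPM. In all 3 copies M6 replicate 1 was the highest bud library and replicate 2 lay between the WT libraries, and none was called (limma adjusted p from 0.564 to 0.714).

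The repressor of bud outgrowth, TB1, was not called in any copy. TB1-4A stood at 3.61 and 4.41 TPM in the WT buds and at 8.45 and 6.13 TPM in the M6 buds, for a log2 change of 0.72 ± 0.21 (SE, adjusted p = 0.268 by limma). TB1-4B had a log2 fold change of 0.52 ± 0.23 (SE, adjusted p = 0.486 by limma). TB1-4D stood at 1.07 and 1.48 TPM in the WT buds and at 2.74 and 1.58 TPM in the M6 buds, for a log2 change of 0.46 ± 0.22 (SE, adjusted p = 0.526 by limma). Both M6 buds lay above both WT buds in all 3 copies, against 16.5% of all genes tested. M6 replicate 1 lay above replicate 2 in each, against 61.7% of all genes tested. With replicate 1 alone the log2 differences were 0.92, 0.72 and 0.72, and with replicate 2 alone 0.51, 0.32 and 0.19, and neither fit called a copy.

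RHT1, which encodes a DELLA repressor of gibberellin response and is the locus of the semi-dwarfing alleles of wheat, had the highest levels on the list. RHT1-4A stood at 76.5 and 87.8 TPM in the WT buds and at 128 and 105 TPM in the M6 buds. RHT1-4B stood at 82.9 and 99.4 TPM against 151 and 111 TPM. RHT1-4D stood at 90.1 and 112 TPM against 170 and 142 TPM. Both M6 buds were above both WT buds in each copy, against 16.5% of all genes tested. On each of these chromosomes RHT1 and TB1 lie near each other by identifier, so they are not independent examples. The log2 fold changes of the RHT1 copies were 0.50 ± 0.13, 0.51 ± 0.17 and 0.63 ± 0.14 (SE), and none was called (limma adjusted p = 0.244, 0.353 and 0.195). With replicate 1 alone the adjusted p-values were 0.0361, 0.0389 and 0.0396 (limma), with differences under 2-fold, and with replicate 2 alone they were 0.460, 0.640 and 0.411.

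Q, an AP2-type gene of spike shape and threshing, overlapped between genotypes in all copies. Q-5A stood at 15.9 and 24.0 TPM in the WT buds and at 30.2 and 19.0 TPM in the M6 buds (limma adjusted p = 0.740). Q-5B and Q-5D had log2 fold changes of 0.17 ± 0.17 and 0.26 ± 0.30 (SE, adjusted p = 0.7497 and 0.784 by limma). The photoperiod gene PPD1-2D stood at 0.875 and 1.95 TPM in the WT buds and at 2.46 and 1.01 TPM in the M6 buds (limma adjusted p = 0.896). LFY-2B and LFY-2D, of the floral meristem gene LFY, were the regulators outside the SBP-box group with negative values, at -0.07 ± 0.20 and -0.22 ± 0.20 (log2, SE; limma adjusted p = 0.917 and 0.728). Copies of FT1, the mobile flowering signal, and of FUL3 were listed at 0 in every library, and those of FZP and WAPO1 were under the filter.

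**Figure D3:**
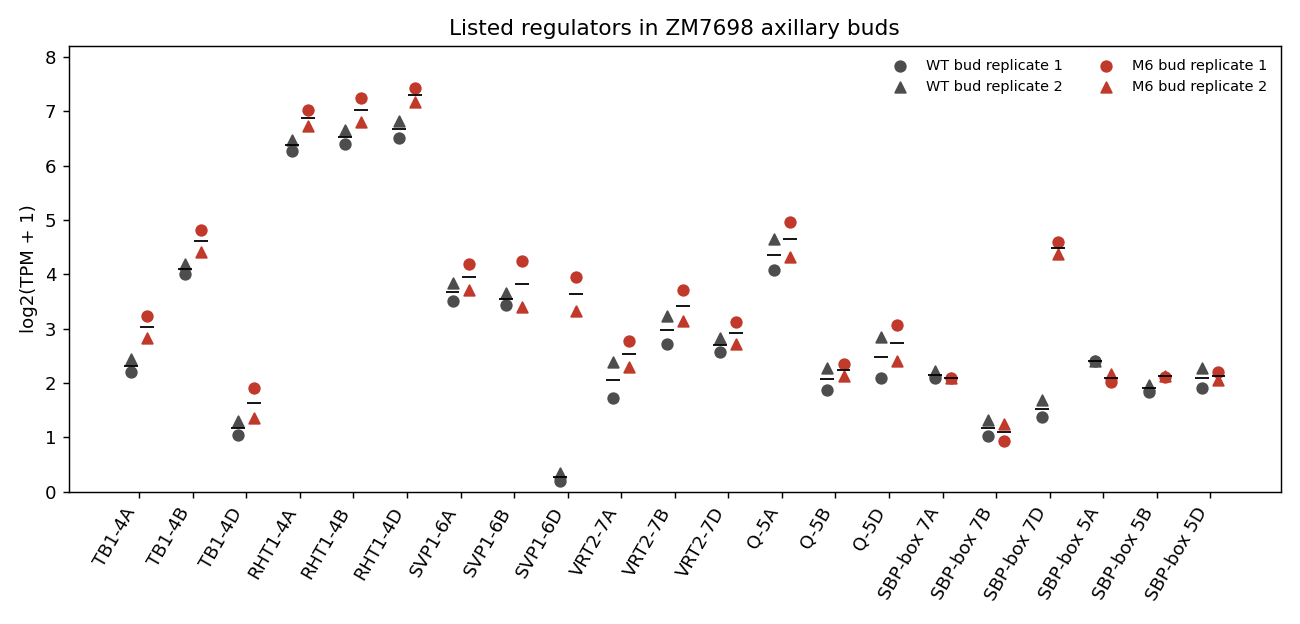
Levels of 21 of the listed regulators in the 4 bud libraries, as log2(TPM + 1), with WT in grey and M6 in red, circles for replicate 1, triangles for replicate 2 and a bar at each genotype's mean. SVP1-6D and the SBP-box gene on 7D are the genes with both M6 points far above both WT points, and in most others M6 replicate 1 is the highest point.

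The effect of M6 in the bud was set beside its effect in the apex. In the apex 40 genes were called higher in M6 (0.0786%) and 28 lower (0.055%). Of the 75 bud genes, 49 were called in the same direction in the apex, 28 higher and 21 lower, and 0 in the opposite direction. The other 26 were not called there, and 24 of these had the same sign. The contrasts use different libraries but 1 estimate of the spread for each gene. The test of the difference between the effects called 0 genes (0%), with 4105 at an unadjusted p under 0.05 and a smallest adjusted p of 0.413 (limma). The same test called 1634 genes without M6 bud replicate 2 and 0 without any other single library, so no bud gene can be called particular to the bud from all 8 libraries.

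Some of the 26 genes were nonetheless far from equal in size between the tissues, and are given as values. TraesCS6D02G091800 stood at 2.23 and 4.21 TPM in the WT buds and at 100 and 64.8 TPM in the M6 buds, while no apex library of either genotype passed 0.0809 TPM. Its transcripts were thus at or next to 0 in the 4 apices and clearly above 0 in the 4 buds, highest in M6. The bud effect was 4.31 ± 0.28 (log2, SE; limma adjusted p = 0.00521) and was called with each library left out, and the difference from the apex effect was 4.26 ± 0.39 (log2, SE; limma adjusted p = 0.413). TraesCS6A02G103300, named after its values were seen, stood at 17.3 and 9.90 TPM in the WT buds and at 279 and 211 TPM in the M6 buds, with no more than 1.00 TPM in any apex library.

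Another pattern was a gene that the apices of both genotypes already expressed. TraesCS5D02G014200 stood at 2.83 and 3.10 TPM in the WT buds and at 68.0 and 87.9 TPM in the M6 buds, against 16.3 and 45.2 TPM in the WT apices and 32.2 and 31.4 TPM in the M6 apices. The WT buds were the low group, and the M6 buds lay above all apices. Its neighbour by identifier, TraesCS5D02G014100, named after its values were seen, stood at 4.93 and 7.004 TPM in the WT buds and at 109 and 98.9 TPM in the M6 buds, with 16.7 to 43.9 TPM over the 4 apices. The bud effect of each was 4.30 ± 0.42 and 3.93 ± 0.40 (log2, SE; limma adjusted p = 0.0288 and 0.0332), and each call was lost in 5 of the 8 fits with a library left out.

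Among the lower genes, TraesCS4B02G240700 stood at 26.2 and 19.6 TPM in the WT buds and at 0.976 and 1.90 TPM in the M6 buds, with 5.92 and 5.44 TPM in the WT apices and 1.54 and 2.61 TPM in the M6 apices. Its bud effect was -3.31 ± 0.26 (log2, SE, adjusted p = 0.0123 by limma) and its apex effect -1.14 ± 0.26 (log2, SE). TraesCS2A02G067100 stood at 7.40 and 8.77 TPM in the WT buds and at 0.814 and 1.64 TPM in the M6 buds, an effect of -2.05 ± 0.21 (log2, SE, adjusted p = 0.0328 by limma). With a library left out, the first of these genes lost its call in 3 of 8 fits and the second in 7. TraesCS2A02G067100 was at most 0.196 TPM in the apices, so a decrease there could not have been measured. TraesCS2A02G066900, near it by identifier and named after its values were seen, stood at 9.46 and 12.1 TPM in the WT buds and at 1.95 and 2.67 TPM in the M6 buds. It was also next to 0 in the apices, and its call was lost in 7 of 8 fits with a library left out. In all, 6 of the 26 genes were under 1 TPM in every apex library, and 6 had an apex effect of at least 2-fold in the same direction.

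**Figure D4:**
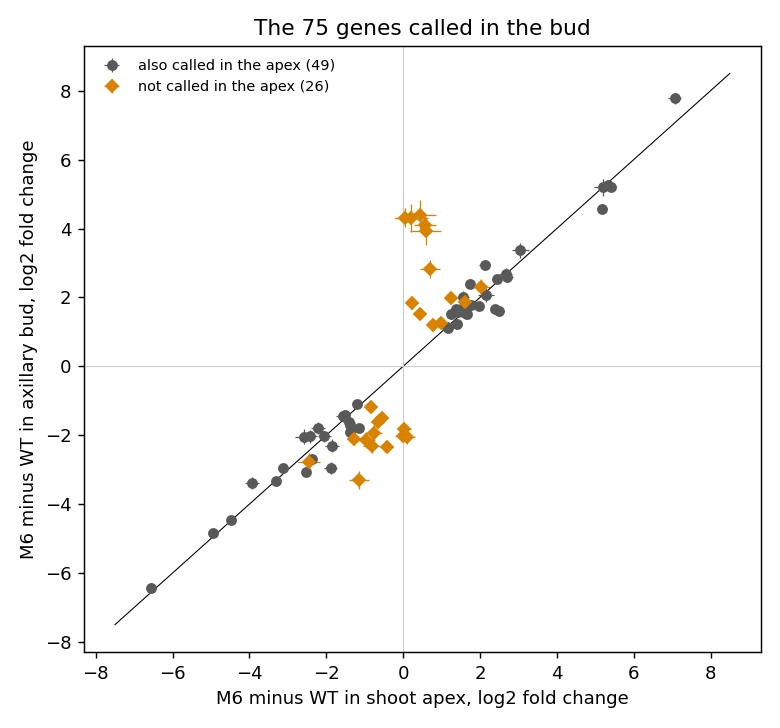
The 75 genes called in the bud, with the log2 fold change of M6 against WT in the shoot apex on the horizontal axis and in the axillary bud on the vertical axis; bars are standard errors and the line marks equal effects. The 49 genes also called in the apex (grey) lie along the line, and the 26 others (orange) include a group of higher genes with bud effects up to 4.41 and apex effects near 0.

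The called genes were not spread evenly over chromosomes as the identifiers give them. Chromosome 5B held 22 of them, 11 higher and 11 lower, which is 0.827% of its 2660 genes tested, against 0.147% over the genome. An even share would have been 3.92. Chromosome 2A held 9 and 6B held 6, against 3.93 and 2.96 by an even share. The B subgenome held 19 higher and 17 lower genes (0.227% of those tested), the A subgenome 7 and 12 (0.115%) and the D subgenome 15 and 5 (0.119%). The B count includes the 22 genes of 5B, so it is not a separate result. Of the other B chromosomes, 6B stood at 0.299%, and the rest ran from 0.0395% (3B) to 0.115% (2B). The 5B count moved with the library left out, together with the total of calls. With all libraries kept, 5B held 11 of 27 calls with sample weights, 10 of 30 with a block for replicate number and 11 of 49 with 5 TPM added. Neighbouring genes are not independent of each other, and no test was made of these counts.

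Some called genes were neighbours by identifier number. Within a window of 10 identifiers there were 10 such runs with 21 of the 75 genes. In 9 runs the called genes moved in 1 direction, a count that leaves out genes between them that were not called. In 1 of these 9, on 5B, 6 tested genes lay between the called ones. Their changes had both signs, with a median log2 fold change of -0.096. How often such runs arise among all genes tested was not tested. The run with the most called genes, on 2A, held TraesCS2A02G420200, TraesCS2A02G420300 and TraesCS2A02G420400, named after their values were seen. All of them were listed at 0 in the 4 WT libraries of both tissues. In the M6 buds they stood at 3.29 and 2.05, 3.25 and 2.82, and 2.52 and 2.06 TPM. With a library left out, their calls were lost in 7, 3 and 5 of 8 fits. The run whose called genes moved in both directions was also on 5B. There TraesCS5B02G552000 fell from 8.90 and 9.14 TPM in the WT buds to 0 in both M6 buds (limma adjusted p = 0.000191). TraesCS5B02G552600 rose from 3.94 and 4.56 TPM to 14.1 and 13.8 TPM (limma adjusted p = 0.0169). These were also named after their values were seen. With a library left out, the call of TraesCS5B02G552600 was lost in 5 of 8 fits and that of TraesCS5B02G552000 in 0. Whether the genotypes differ in chromosome segments besides the mutated genes was not tested.

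**Figure D5:**
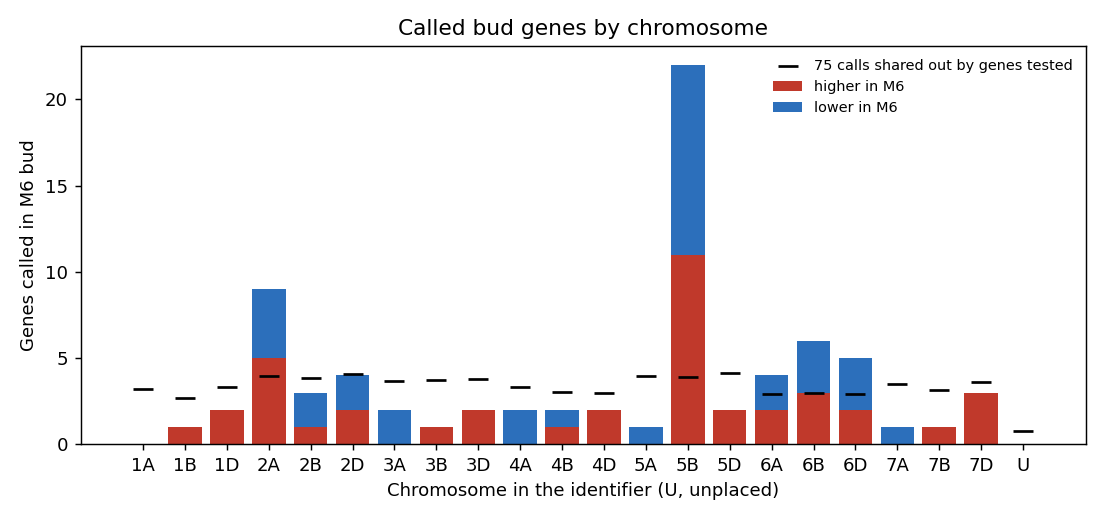
Genes called higher (red) and lower (blue) in the M6 bud, stacked by the chromosome in the identifier, with U for unplaced genes; the short lines show the 75 calls shared out by the number of genes tested on each chromosome. Chromosome 5B stands at 22 against 3.92, and 1A has none.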

How the data were processed

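Stranded messenger RNA libraries of ZM7698 were used, 2 for each of the WT bud, M6 bud, WT apex and M6 apex groups. The deposited values are TPM, 1 table per library; per the submitters' processing notes, Trimmomatic, HISAT2 2.0.5 and StringTie 1.3.3b were used. No source used here gives the genome build. TPM keeps no depth, so precision rests on the 2 libraries per group. Reads shared by near-identical copies may have been divided between them.

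The deposited TPM were turned into log2(TPM + 1), and limma 3.58.1 in R 4.3.3 was fitted to all 8 libraries with 1 mean per group and an intensity trend, two-sided, for genes with at least 1 TPM in at least 2 libraries. The fit was run on simulated data, which checked the estimated fold changes and set no minimum for calls. All groups had the same spread there, so the wider spread of the M6 buds was not tested. A single M6 replicate was set against the WT mean of log2 values without a test. Figures were drawn in Python 3.11.15 with matplotlib 3.10.9. The AK58 libraries were not used here.

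The reference gene table matched 0 of 120744 identifiers, so planned lists by description were not made and no sequence is given. The comparison and the regulator list were chosen with earlier results of these data known. The rule for named genes took for each comparison at most 2 identifiers in each direction, called or past 2-fold, with at least 5 TPM in the higher group, by size of the change, and listed regulators that passed the filter. Genes chosen after their values were seen are marked. Alternatives were 0.1 or 5 TPM added, other filters and scalings, no trend, sample weights, the bud libraries alone, a block for replicate number, no minimum fold change, and leaving out each library. Whether same-numbered libraries belong together is not known.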

Additional observations from a re-analysis of the deposited data

How the results depend on the processing

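With 2 libraries per group and unknown depth, small differences could not be measured. The count of higher genes in M6 buds (41) was 24 with 5 TPM added, 21 with a filter of 5 TPM, 15 with sample weights, and 7 in the 4 bud libraries alone, where 0 listed regulators were called; over single libraries left out it ran from 11 to 1398. The count of lower genes (34) was 21 with 0.1 TPM added, 22 with no filter, 14 with a filter of 5 TPM, 12 with sample weights and 8 in the bud libraries alone, and ran from 9 to 614. Over single libraries the difference between bud and apex effects ran from 0 to 1634 genes, the called regulators from 1 to 2 and the chromosome 5B genes from 6 to 149. With the replicate number as a block, 16 genes were higher and 14 lower; the numbers are not known to pair the libraries, and across genes the gaps between replicates 1 and 2 of M6 and WT buds had r = -0.308. With the pairing crossed, a setting chosen after seeing the data, 49 were higher and 27 lower. Counts past 2-fold moved with the added value, in the order 0.1 then 5 TPM. For M6 replicate 1 they were 4405 and 972 above WT and 2165 and 442 below, and for replicate 2, 1127 and 152 above and 1608 and 176 below. Replicate 1 exceeded replicate 2 for 4770 and 964, and the reverse held for 936 and 69. With the filter of 5 TPM, 1276 and 291 genes were above WT in replicates 1 and 2, and 1326 higher in replicate 1 than in 2. With median centring 1760 were below WT in replicate 1, and the replicates differed by 1672 and 765, or with quantile normalization 539 in favour of replicate 2. Of the called genes, 28 were followed through the settings, some of them not named here. No call among them changed sign: of 529 values 389 kept the call and 140 lost it. TraesCS1D02G136600, TraesCS6A02G103300 and TraesCS7A02G102800 were not among the 28. Signs changed among regulators without a call, in 16 of 409 values. Over libraries left out, the log2 fold change ran from -0.14 to 0.71 for SVP1-6B, -0.23 to 0.56 for PPD1-2D, -0.038 to 0.60 for Q-5A, -0.036 to 0.37 for Q-5B, -0.12 to 0.64 for Q-5D, -0.30 to 0.16 for LFY-2B and -0.49 to 0.047 for LFY-2D. It ran from -0.13 to 0.0035 for the SBP-box gene on 7A, -0.24 to 0.082 on 7B and -0.14 to 0.22 on 5D, the last also at -0.0068 with quantile normalization. The cause of these changes was not tested.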

Other observations

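The noncoding RNA identifiers, 1135 of which passed the filter, gave no call. Limma called 0 of them, where the share over all genes tested (0.147%) would give 1.67, at a smallest adjusted p of 0.0556, and 130 (11.5%) had an unadjusted p under 0.05, against 11.0% of all genes tested. Both M6 buds lay above both WT buds for 274 of them and below for 122, a balance that all genes tested did not have, at 8408 and 10002. Their median log2 fold change was 0.13, in each M6 replicate 0.13 and 0.14.

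The share of summed TPM from the A subgenome was 33.5% and 33.4% in the WT buds and 32.9% and 33.2% in the M6 buds. The B subgenome gave 30.8% in both WT buds and 31.1% in both M6 buds. The libraries did not overlap for either, and the exact permutation test, two-sided, gave p = 0.33 for both, the smallest that 2 libraries against 2 allow. The D subgenome gave 33.6% and 33.5% in the WT buds and 33.7% and 33.2% in the M6 buds, where the libraries overlapped (exact permutation test, two-sided, p = 1). The 10 most abundant identifiers took 2.61% and 2.49% of the TPM in the WT buds, 3.52% in M6 replicate 1 and 2.77% in M6 replicate 2.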
